A study of Mus musculus with 12 samples.

Results

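The 38 genes described here encode the machinery by which a mouse cell moves new proteins into the endoplasmic reticulum (ER), cuts off their signal peptides, attaches N-linked glycans and sends misfolded chains back out for degradation. They were taken by name: a row of the count table belongs to the set when its Ensembl mouse gene identifier, without its version, maps to a listed symbol. All 38 were found among the 47069 genes of the table, and all 38 were among the 17286 genes with enough counts to be tested. They fall into 6 groups by role, with 7 genes of the translocation channel, 4 of the translocon-associated protein (TRAP) complex, 7 of the signal recognition particle and its receptor, 5 of the signal peptidase, 7 of the oligosaccharyltransferase and 8 of ER-associated degradation.

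The RNA came from bilateral frontal cortex, labelled prefrontal cortex, of male mice on a C57BL/6 background, and 12 mRNA libraries were made from it. The 4 groups of 3 libraries were HDAC2(loxP,loxP), CamKIIa-Cre(+,-) mice given clozapine at 10 mg/kg, mice of the same genotype given vehicle, Wild-type mice given clozapine at 10 mg/kg, and Wild-type mice given vehicle. Clozapine is an antipsychotic drug, and the series calls its dosing chronic; age, number of doses and whether animals were pooled are not given in the sources used here, and the p-values therefore reflect only how these libraries vary. Camk2a-driven Cre acts in excitatory forebrain neurons, so other cells of the tissue are not targeted by it, and whether Wild-type mice carried loxP or Cre alleles is not given. Libraries are named below by group and by the number in their label.

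Proteins that are secreted or sit in membranes carry a signal sequence that the signal recognition particle binds as it leaves the ribosome. The particle docks at its receptor, and the chain is threaded through the Sec61 channel, where signal peptidase removes the signal and the oligosaccharyltransferase adds a preassembled glycan. Chains that do not fold are recognised through their trimmed glycans, moved back through a complex built around Sel1l and the ubiquitin ligase Syvn1, and degraded by the proteasome. In neurons this route makes receptors, ion channels, adhesion proteins and neuropeptides. When unfolded protein accumulates, the unfolded protein response raises many genes of the route, and the chaperone gene Hspa5 is its usual marker.

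Libraries held between 23408372 and 28069638 counts. Within groups, pairs of libraries differed by more than counting noise, with a mean chi-square per gene of 4.38 to 10.2 over 12 pairs. No pair within a group was therefore the same library sequenced again. Whether libraries shared an animal or an RNA sample cannot be told from this. The spread between libraries sets the precision. Hdac2 was not lower in the libraries labelled knockout: it stood at 75.4, 76.6 and 73.3 CPM (counts scaled to TMM library size) in labelled knockout vehicle libraries, against 75.7, 63.4 and 70.0 CPM in wild-type vehicle libraries, and at 73.9, 70.5 and 71.2 CPM in labelled knockout clozapine libraries, against 75.5, 72.3 and 73.5 CPM in wild-type clozapine libraries (edgeR, adjusted p = 0.277 under vehicle and 0.804 under clozapine). These counts cover the whole gene, and which exons the loxP sites flank is not given, so they do not check the deletion. All 5 excitatory cortical neuron markers were measured and their sum was 5422 to 6649 CPM in every library; it was 6537 to 6649 CPM in labelled knockout clozapine libraries, 5422 to 6311 in labelled knockout vehicle, 5528 to 5699 in wild-type clozapine and 5952 to 6430 in wild-type vehicle libraries. Library wild-type vehicle 3 stood apart in choroid plexus markers, whose 5 genes summed to 59.9 CPM there, mostly Ttr at 53.3 CPM, and to between 3.43 and 9.66 CPM in the other 11 libraries. In bulk tissue, fewer cells of a type and less RNA per cell cannot be told apart.

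All 38 genes were well measured, with mean levels between 16.6 CPM (Sec61b) and 209 CPM (Sel1l) and a median of 55.5 CPM, against a median of 15.9 CPM over all tested genes. Across the 12 libraries, whatever their group, the coefficient of variation of the members ran from 3.02% (Srp54a) to 9.40% (Spcs3) with a median of 5.26%; the median over all tested genes, which are on average less abundant, was 9.78%. Hspa5, which is no member, varied by 23.1%. Per length of exon the members spanned a wide range. The lectin gene Os9, whose product reads trimmed glycans on misfolded proteins, stood highest at 60.3 CPM per kb, followed by Srp14 at 52.5, Ddost at 40.8, Spcs1 at 39.2 and Sec62 at 36.0 CPM per kb. The derlin gene Derl2 stood lowest at 2.57 CPM per kb.

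Members with related functions differed in level per length. Of the catalytic oligosaccharyltransferase subunits, Stt3b, which glycosylates sites passed over during translocation, stood at 26.0 CPM per kb, and Stt3a, which works beside the channel, at 3.85 CPM per kb. Derl1 stood at 19.2 CPM per kb, against 2.57 for Derl2. The catalytic signal peptidase genes Sec11c and Sec11a stood at 6.83 and 3.77 CPM per kb. The channel subunit genes Sec61a1 and Sec61a2 stood at 7.90 and 6.03 CPM per kb, although 19.9% of the exonic length of Sec61a2 overlaps the gene Nudt5 on the other strand. The mannosidase-like genes Edem3, Edem2 and Edem1 stood at 7.54, 5.42 and 3.26 CPM per kb. Exonic length was the union of all annotated exons, so a gene with long rarely used exons is understated on this scale.

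**Figure D1:**
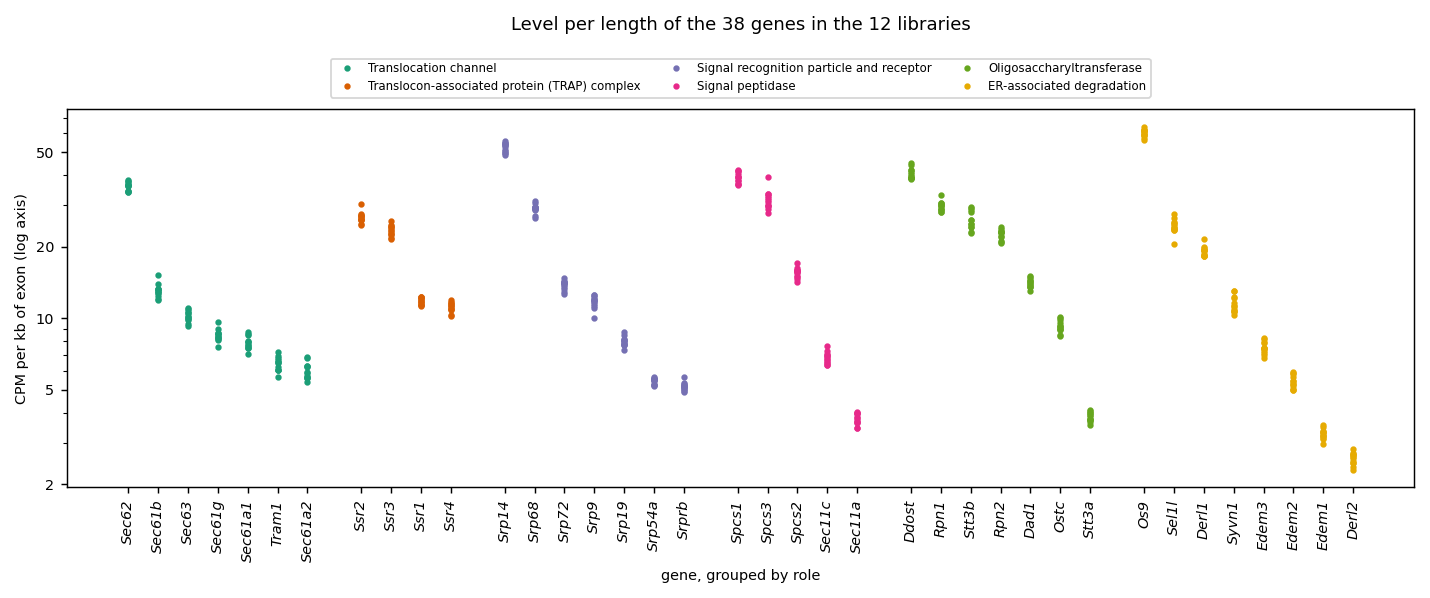
Level of each of the 38 genes in CPM per kb of exon (log axis), with 1 point for each of the 12 libraries and genes grouped by role and ordered by mean within a role. Levels span from 2.57 (Derl2) to 60.3 CPM per kb (Os9), and the points of a gene lie close together compared with the distances between genes.

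The design asks what chronic clozapine changes in cortex, with and without the labelled loss of Hdac2, and what the genotype changes with and without the drug. The members called in edgeR's quasi-likelihood test, with Benjamini-Hochberg adjusted p under 0.05 over all 17286 genes, were 4 of 38 in a single comparison, labelled knockout against wild type under vehicle. There Srp9 rose, and Spcs3, Sel1l and Syvn1 fell. That is 10.53% of the members, and 9.16% of all tested genes were called in that comparison (4.01% higher and 5.15% lower), so the share among the members is near the background. The median log2 change of the members was -0.015, against 0.004 over all genes, and 7 of 38 members had an unadjusted p under 0.05, against 23.8% of all genes. Of 38 changes 24 were below 0, against 49.1% of all genes. DESeq2 and limma-voom each called the same 4 genes, with 11% and 9.26% of all genes called; a fit of only these 2 groups called Syvn1 alone, with 6.48% of all genes.

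Clozapine against vehicle in wild type gave 0 called members in edgeR, where 0.816% of all genes were called. At an unadjusted p under 0.05 there were 6 (Sec61a1, Ssr2, Srp9, Rpn1, Stt3b and Syvn1), against 11.6% of all genes; limma-voom called 0 members, with 0.752% of all genes called, and DESeq2 called Sec61a1, with 1.85%. The median log2 change was -0.033, against 0.005 over all genes, and 23 of 38 changes were below 0, against 48.6% of all genes. This comparison and that of the genotypes under vehicle share the 3 wild-type vehicle libraries. Some cell marker sums separated the groups of this comparison. Red blood cell markers summed to between 212 and 437 CPM in wild-type clozapine libraries and between 138 and 180 CPM in wild-type vehicle ones. The sums of excitatory neuron, interneuron (983 to 992, against 994 to 1027 CPM) and choroid plexus markers did not overlap either. Those of astrocyte, oligodendrocyte, oligodendrocyte precursor, microglia, endothelial, mural, meningeal fibroblast and striatal neuron markers overlapped. The part of any of these cells in the changes of the members and of Hspa5 was not tested.

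In the labelled knockout, clozapine against vehicle gave 0 called members in edgeR, DESeq2 and limma-voom, which called 0.0231%, 2.96% and 0.0116% of all genes. The 2 members with an unadjusted p under 0.05 were Tram1 (log2 change -0.17) and Sec11c (-0.14), against 12.2% of all genes. The changes of 30 of 38 members were below 0, against 50.7% of all genes, with a median of -0.029. Once library-specific trends with exonic length and GC content were removed, 24 of 38 were below 0.

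Labelled knockout against wild type under clozapine gave 0 called members in edgeR, DESeq2 and limma-voom, which called 2%, 3.75% and 1.8% of all genes. Sec63 alone had an unadjusted p under 0.05 (log2 change 0.125), against 15.9% of all genes, and 23 of 38 changes were below 0, against 51.3%. The interaction, the labelled knockout's response to clozapine minus the response of wild type, gave 0 called members in the same 3 tools, which called 0.654%, 3.24% and 0.636% of all genes. At an unadjusted p under 0.05 the interaction had 5 members (Sec61a1, Sec63, Srp9, Sel1l and Syvn1), against 13.6% of all genes, and 16 of 38 values were below 0, against 51.5%.

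In the reported fit of this bulk tissue, the 95% intervals of the members were narrow. Each interval stands alone, with no allowance for the number of genes and comparisons. They do not bound changes within the neurons that Cre targets. In each of the 5 comparisons the 95% intervals of all 38 members lay within 0.5 of 0 on the log2 scale, with a median standard error of 0.059 (0.084 for the interaction). Limits were set at a rise of 20% and at the fall of equal size on the log2 scale, which is less than 20%. The interval lay wholly within these limits for 32 members under clozapine in wild type and 34 under clozapine in the labelled knockout. Between genotypes it did so for 32 members under vehicle and 35 under clozapine. For the interaction it did so for 20 members. The farthest bound of any interval was a fold of 1.31, for Spcs3 between genotypes under vehicle.

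**Figure D2:**
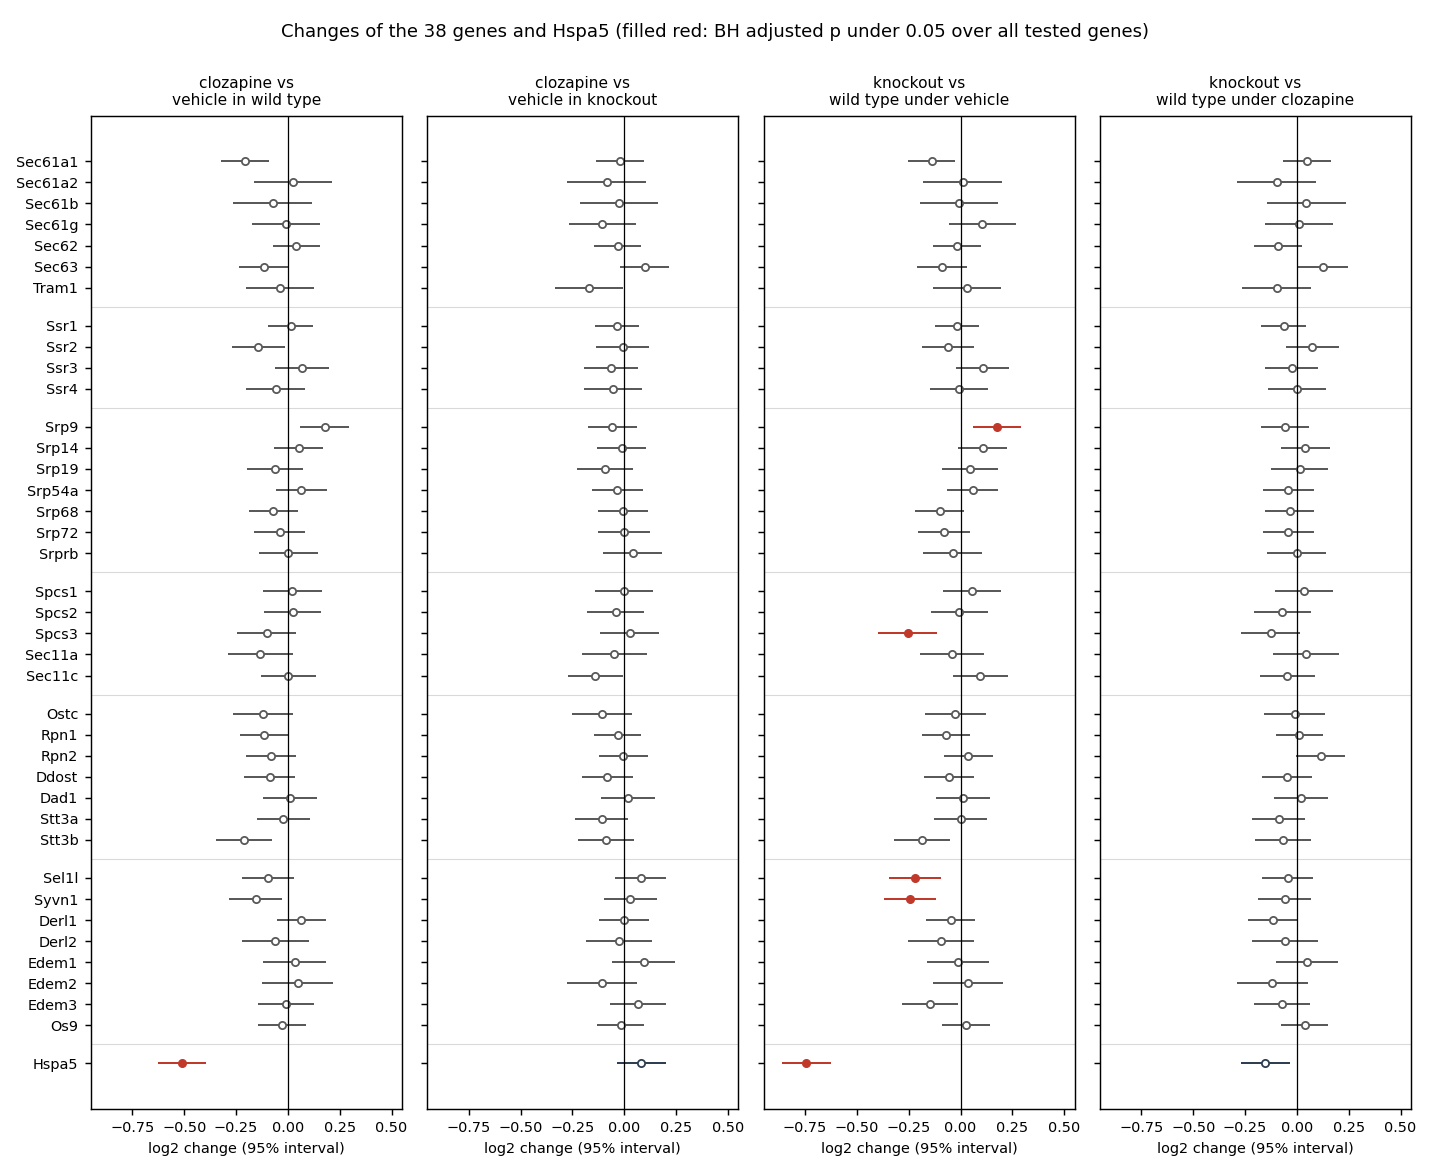
Log2 change (points) with 95% interval (bars) of the 38 genes, grouped by role, and of Hspa5, in 4 comparisons, 1 panel each. Filled red marks a BH adjusted p under 0.05 over all tested genes: Srp9, Spcs3, Sel1l and Syvn1 in labelled knockout against wild type under vehicle, and Hspa5 there and under clozapine in wild type; the intervals of the 38 genes stay within 0.5 of 0.

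In ER-associated degradation 2 of 8 genes, Syvn1 and Sel1l, fell in labelled knockout against wild type under vehicle, where 5.15% of all genes fell; with 8 genes the count is a description. Syvn1 (ENSMUSG00000024807.17, chr19:6046576-6053712, plus strand, GRCm38), also known as Hrd1, encodes the ligase. It stood at 52.2, 56.5 and 51.5 CPM in labelled knockout clozapine libraries, 50.4, 54.8 and 52.0 in labelled knockout vehicle, 59.1, 54.5 and 53.3 in wild-type clozapine, and 59.6, 63.0 and 63.3 CPM in wild-type vehicle libraries. The 3 wild-type vehicle libraries were the highest of the 12. Under vehicle Syvn1 fell by 15.5% in the labelled knockout (95% interval -22.4% to -8.10%; log2 change -0.24, SE 0.058, adjusted p = 0.0156 in edgeR). Its change under clozapine in wild type was -0.16 (adjusted p = 0.262), with wild-type clozapine libraries all below wild-type vehicle ones. The call under vehicle did not hold without wild-type vehicle 3 (adjusted p = 0.0665) or without labelled knockout vehicle 2 (0.0752). Of its exonic length 1.87% overlaps Mrpl49 on the other strand.

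Sel1l (ENSMUSG00000020964.14, chr12:91806043-91849157, minus strand), whose product holds Syvn1 in the membrane complex and brings substrates to it, stood at 210, 202 and 204 CPM in labelled knockout clozapine libraries, 201, 206 and 176 in labelled knockout vehicle, 213, 216 and 206 in wild-type clozapine, and 218, 234 and 226 CPM in wild-type vehicle libraries. As for Syvn1, the wild-type vehicle libraries were the 3 highest of all 12. Under vehicle Sel1l fell by 14.1% in the labelled knockout (-20.9% to -6.76%; log2 change -0.22, SE 0.056, adjusted p = 0.0229 in edgeR). The call did not hold without wild-type vehicle 3 (adjusted p = 0.104) or without labelled knockout vehicle 5 (0.0775), the lowest library for this gene.

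None of the other 6 degradation genes was called in any comparison. Edem3, whose product trims mannose to mark misfolded glycoproteins, came nearest under vehicle, with a log2 change of -0.15 between genotypes (adjusted p = 0.153). The derlin genes Derl1 and Derl2, whose products help pull substrates through the membrane, had changes of -0.05 and -0.09 there. Edem1, Edem2 and Os9 had changes between -0.013 and 0.037, and that of Edem1 turns sign once length and GC trends are removed. Averaged over the 8 genes, the log2 level relative to the 12-library mean was -0.056, -0.031 and -0.038 in labelled knockout vehicle libraries and 0.037, 0.074 and 0.029 in wild-type vehicle libraries; the called genes are part of these averages, which are given with no test.

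In the signal peptidase 1 of 5 genes fell in labelled knockout against wild type under vehicle, where 5.15% of all genes fell. With 5 genes this count is a description. Spcs3 (ENSMUSG00000054408.9, chr8:54520433-54529998, minus strand), which encodes a non-catalytic subunit, stood at 103, 103 and 104 CPM in labelled knockout clozapine libraries, 107, 96.5 and 100.3 in labelled knockout vehicle, 115, 113 and 109 in wild-type clozapine, and 136, 115 and 111 CPM in wild-type vehicle libraries. All 6 labelled knockout libraries were below all 6 wild-type libraries, and wild-type vehicle 1 was the highest by a wide gap. The share of all tested genes that separate the genotypes in this way is not given here. Under vehicle Spcs3 fell by 16.2% in the labelled knockout (-23.8% to -7.81%; log2 change -0.255, SE 0.065, adjusted p = 0.0225 in edgeR). Under clozapine the difference between genotypes was -0.13 (adjusted p = 0.366). Without wild-type vehicle 1 the change under vehicle was -0.156 and was not called (adjusted p = 0.0999), and it was not called without labelled knockout vehicle 4 (0.0688) or 5 (0.0620).

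The other signal peptidase genes had smaller changes between genotypes under vehicle. The catalytic genes Sec11a and Sec11c were at -0.041 and 0.095 on the log2 scale. Spcs1 and Spcs2, which also encode non-catalytic subunits, were at 0.057 and -0.007, and both values turn sign once length and GC trends are removed. Under clozapine in wild type, the 5 genes ranged from -0.13 (Sec11a) to 0.024 (Spcs2).

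In the signal recognition particle and its receptor 1 of 7 genes rose between genotypes under vehicle, where 4.01% of all genes rose. With 7 genes this count is a description. Srp9 (ENSMUSG00000026511.7, chr1:182124737-182132407, plus strand), which with Srp14 forms the part of the particle that slows elongation, stood at 66.5, 64.8 and 63.5 CPM in labelled knockout clozapine libraries, 66.5, 66.5 and 69.5 in labelled knockout vehicle, 67.9, 65.7 and 69.1 in wild-type clozapine, and 62.3, 55.7 and 61.5 CPM in wild-type vehicle libraries. Here the wild-type vehicle libraries were the 3 lowest of the 12, with wild-type vehicle 3 the lowest. Under vehicle Srp9 rose by 12.9% in the labelled knockout (4.52% to 22.0%; log2 change 0.175, SE 0.053, adjusted p = 0.0474 in edgeR). The value lies just inside the threshold: the call was lost in 15 of 21 alternative settings, among them 11 of the 12 that left out a library, each but that without wild-type vehicle 1 (adjusted p up to 0.221, without wild-type vehicle 3). Of its exonic length 14.15% overlaps the pseudogene Gm17968 on the other strand. Under clozapine in wild type its change was 0.18 (adjusted p = 0.151), and the interaction was -0.23 (adjusted p = 0.177).

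Srp14, the partner of Srp9, was at a log2 change of 0.11 between genotypes under vehicle, with no overlap between the groups and no call. The other 5 genes of the particle and receptor were between -0.10 (Srp68) and 0.058 (Srp54a) there: Srp68 and Srp72 encode a dimer of the particle's other domain, Srp19 its assembly factor and Srprb the membrane subunit of the receptor. Srp54a encodes the subunit that binds the signal sequence, and its value is uncertain, because its transcript matches that of Srp54c, at 106 CPM, with 99.5% identity over 3640 bases.

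No gene of the translocation channel was called. Sec61a1 (ENSMUSG00000030082.14, chr6:88503579-88518905, minus strand), which encodes the pore subunit, had the smallest p. It stood at 52.0, 50.3 and 53.4 CPM in labelled knockout clozapine libraries, 54.1, 53.3 and 50.5 in labelled knockout vehicle, 47.8, 51.9 and 51.0 in wild-type clozapine, and 57.4, 57.7 and 58.9 CPM in wild-type vehicle libraries. The wild-type vehicle libraries lay above the other 9 and close to each other. The change under clozapine in wild type was -0.21 (SE 0.052, adjusted p = 0.0798 in edgeR), a size of -13.4% with a 95% interval of -19.8% to -6.54%. DESeq2 gave an adjusted p of 0.0375 for it. Between genotypes under vehicle it was -0.14 (adjusted p = 0.104).

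The other 6 channel genes had log2 changes between -0.12 (Sec63) and 0.041 (Sec62) under clozapine in wild type. Sec62 and Sec63 encode partners of the channel used by small and late-arriving chains, Sec61b and Sec61g its small subunits, Sec61a2 a second form of the pore and Tram1 a neighbouring membrane protein. In the labelled knockout Sec63 was at 0.098 and Tram1 at -0.17 under clozapine, the ends of the range of the 38 genes there. Part of the value of Sec61g may belong to the pseudogene Gm10177, which holds 0.0968 times its counts and matches it fully over 420 bases.

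In the TRAP complex, which assists the channel with certain signal sequences, none of 4 genes was called. Ssr2 (ENSMUSG00000041355.13, chr3:88575876-88588419, plus strand) had the smallest p of the complex. It stood at 50.05, 48.6 and 49.98 CPM in labelled knockout clozapine libraries, 50.7, 48.7 and 50.05 in labelled knockout vehicle, 46.6, 46.3 and 48.4 in wild-type clozapine, and 48.3, 51.2 and 56.5 CPM in wild-type vehicle libraries. The wild-type groups overlapped. Its change under clozapine in wild type was -0.14 (SE 0.058, adjusted p = 0.317 in edgeR), and without wild-type vehicle 4, its highest library, it was -0.082 (adjusted p = 0.682). Ssr1, Ssr3 and Ssr4 were between -0.059 and 0.068 in that comparison, and between -0.064 and -0.034 under clozapine in the labelled knockout.

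None of the 7 oligosaccharyltransferase genes was called. Stt3b (ENSMUSG00000032437.9, chr9:115242581-115310421, minus strand) had the smallest p. It stood at 103, 105 and 96.6 CPM in labelled knockout clozapine libraries, 109, 109 and 106 in labelled knockout vehicle, 103, 118 and 97.5 in wild-type clozapine, and 123, 121 and 124 CPM in wild-type vehicle libraries. The wild-type vehicle libraries were again the 3 highest. The change under clozapine in wild type was -0.21 (SE 0.062, adjusted p = 0.141 in edgeR), and without wild-type clozapine 3, the library at 118 CPM, it was -0.295 and was called (0.0205). Without wild-type clozapine 5, the lowest wild-type library, it was -0.156 (adjusted p = 0.391). Between genotypes under vehicle it was -0.19 (adjusted p = 0.0680).

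The other catalytic subunit gene, Stt3a, had a log2 change of -0.022 under clozapine in wild type and one of nearly 0 between genotypes under vehicle. The shared subunit genes Rpn1, Rpn2, Ddost and Dad1 ranged from -0.11 (Rpn1) to 0.010 (Dad1) under clozapine in wild type, and Ostc, a subunit that docks the Stt3a form at the channel, was at -0.12. In that comparison 6 of the 7 genes were below 0, with a median of -0.088 for the group, against 0.005 for all genes.

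**Figure D3:**
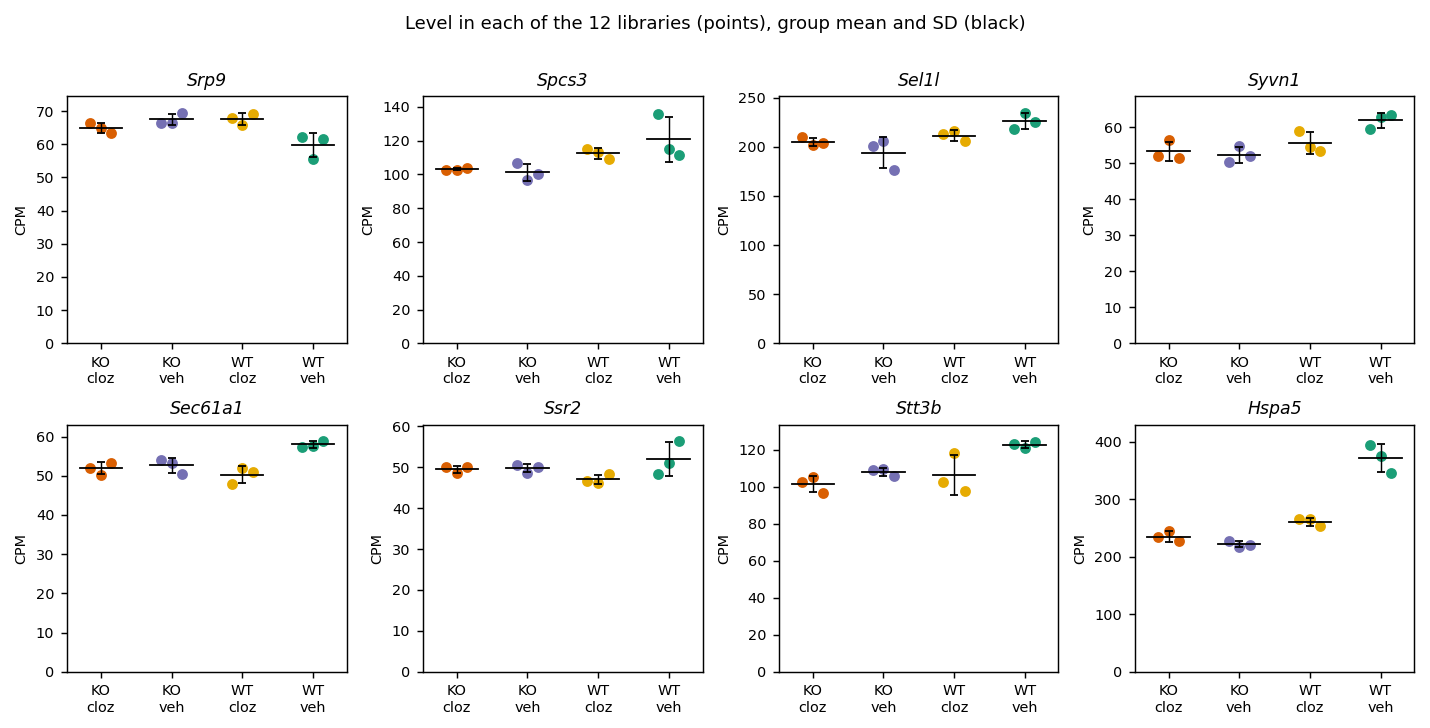
CPM in each of the 12 libraries (points), with group mean and SD (black, n = 3), for the 4 called members, the members of smallest p in the 3 roles with none called, and Hspa5; KO is the labelled knockout, WT wild type, cloz clozapine and veh vehicle. Wild-type vehicle libraries lie above the other 9 for Sel1l, Syvn1, Sec61a1, Stt3b and Hspa5 and below them for Srp9; axes start at 0.

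A count made after these values were seen asked how often the 3 libraries of a group lay outside the other 9. For wild-type vehicle, 4 of 38 members lay above (Sec61a1, Stt3b, Sel1l and Syvn1), against 2.67% of all tested genes, and 1 lay below (Srp9), against 1.79%. For labelled knockout clozapine 0 lay above and 1 below (Stt3a), against 1.14% and 1.33% of all genes. The counts were 0 above and 0 below for labelled knockout vehicle, against 1.85% and 2.94%, and for wild-type clozapine, against 1.08% and 1.57%. Compared in pairs of groups, the libraries did not overlap for 9 members under clozapine in wild type, against 15.6% of all genes, and for 6 under clozapine in the labelled knockout, against 18.7%. Between genotypes they did not overlap for 9 members under vehicle, against 27.3% of all genes, and for 6 under clozapine, against 22.5%; 38 members give 23.68% for 9 and 15.79% for 6.

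Hspa5, the ER chaperone that also guards the lumenal side of the channel, had a larger log2 change than any member in 4 of the 5 comparisons and was called in 3 of them. It stood at 235 ± 8.97 CPM in labelled knockout clozapine libraries, 222 ± 4.87 in labelled knockout vehicle, 261 ± 7.06 in wild-type clozapine and 371 ± 24.6 CPM in wild-type vehicle libraries (SD, n = 3). In edgeR Hspa5 fell under clozapine in wild type (log2 change -0.51, adjusted p = 0.000358) and in labelled knockout against wild type under vehicle (-0.74, adjusted p = 7.45e-07). Under clozapine in the labelled knockout it was at 0.083 (adjusted p = 0.58), and between genotypes under clozapine at -0.15 (adjusted p = 0.162), where the groups did not overlap; in the interaction of genotype and clozapine it was at 0.59 (adjusted p = 0.00195).

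Beside the members stand 75 other genes of the same pathways, all measured: 22 of translocation and targeting, 25 of N-glycan synthesis and transfer and 28 of degradation. Between genotypes under vehicle 3 of the 75 rose and 6 fell, 12% against the 9.16% of all genes. Among those of smallest p were the ER folding factor genes Sdf2l1 (log2 change -0.94, adjusted p = 0.000119) and Creld2 (-0.65, adjusted p = 0.00103), the J-protein gene Dnajc1 (-0.44, adjusted p = 0.0199), the glucosyltransferase gene Alg10b (-0.265, adjusted p = 0.0116), and the nucleotide exchange factor gene of Hspa5, Sil1 (0.34, adjusted p = 0.0126). Srpra, the other receptor subunit of the signal recognition particle, and Nploc4 also fell, and Ufd1 rose; Nploc4 and Ufd1 encode partners in pulling ubiquitinated chains from the membrane.

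Sdf2l1, which encodes an ER-resident partner of Hspa5 cofactors, stood at 10.6, 11.4 and 8.27 CPM in labelled knockout clozapine libraries, between 8.86 and 9.22 in labelled knockout vehicle, 13.4, 11.1 and 12.3 in wild-type clozapine, and 18.5, 17.3 and 16.1 CPM in wild-type vehicle libraries. The wild-type vehicle libraries were the 3 highest and did not overlap any other group. In wild type under clozapine 2 of 75 genes were called, Sdf2l1 lower (-0.50, adjusted p = 0.0385) and Sil1 higher (0.37, adjusted p = 0.0351), against 0.816% of all genes. Both of these calls were lost when any of several libraries was left out: for Sdf2l1 wild-type vehicle 1 (0.137) or 3 (0.128), wild-type clozapine 3 (0.101) or 5 (0.129) or labelled knockout vehicle 2 (0.0507), and for Sil1 each wild-type vehicle library (0.0573 to 0.128), wild-type clozapine 2 (0.104) or 5 (0.143) or labelled knockout clozapine 4 (0.0560). Between genotypes under vehicle, the call of Dnajc1 was lost without wild-type vehicle 1 (0.0632) or 3 (0.101) or labelled knockout vehicle 2 (0.0863) or 5 (0.0776), and once length and GC trends were removed (0.0522), as was that of Nploc4 (0.0662, against 0.0474 before). In the labelled knockout under clozapine, between genotypes under clozapine and in the interaction, edgeR called 0 of the 75, with 5, 7 and 12 at an unadjusted p under 0.05. Of all genes, 0.0231%, 2% and 0.654% were called there, and 12.2%, 15.9% and 13.6% had an unadjusted p under 0.05.

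Promoter windows from RefSeq (build GRCm38.p6, 250 bases before to 50 after each gene's start) were held for 29 of the 38 members. On both strands they were searched for the ER stress element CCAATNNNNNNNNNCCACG, the sequence through which the unfolded protein response acts on many chaperone genes, for its CCACG box alone, which every full element contains, and for the cores TGACGTGG and TGACGTCA of the unfolded protein response element and the cAMP response element. The ER stress element was found in 1 of 29 members, Syvn1, and in 0.137% of the 27025 genes with a window. The CCACG box was found in 21 of 29 members, 72.41%, and in 35.482% of all genes; windows of members are richer in CG dinucleotides (median 21, against 7 over all windows) and in G and C (60.0%, against 52.67%). Of the called members, Sel1l and Syvn1, which fell, and Srp9, which rose, hold the box, and no window was held for Spcs3. TGACGTGG and TGACGTCA were found in 0 of 29 members, and in 0.714% and 2.031% of all genes.

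Srp9, which rose, also holds the CCACG box, and its window is not printed. The window of Syvn1 is printed because it is the called member with the full element. That of Sel1l, its partner, was added because it was seen to fall with Syvn1 and holds the box without the full element. Both are written 5′ to 3′ on the gene's strand; the capitals mark the full element in Syvn1, at -44 to -26 from the start site, and in Sel1l the box, at -162 to -158, on the other strand. The windows are chr19:6046326-6046625 (plus strand) and chr12:91849108-91849407 (minus strand).
Syvn1: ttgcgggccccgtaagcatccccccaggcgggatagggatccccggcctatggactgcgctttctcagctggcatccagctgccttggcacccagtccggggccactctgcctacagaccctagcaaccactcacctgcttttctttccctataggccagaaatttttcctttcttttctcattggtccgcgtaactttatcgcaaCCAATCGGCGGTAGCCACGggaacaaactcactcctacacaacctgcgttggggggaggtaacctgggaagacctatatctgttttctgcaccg
Sel1l: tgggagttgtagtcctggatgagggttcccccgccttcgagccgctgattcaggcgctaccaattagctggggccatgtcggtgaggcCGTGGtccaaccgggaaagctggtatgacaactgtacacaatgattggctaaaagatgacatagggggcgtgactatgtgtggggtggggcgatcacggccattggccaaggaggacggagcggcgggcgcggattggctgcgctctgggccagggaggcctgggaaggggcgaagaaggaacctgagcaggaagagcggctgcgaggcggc

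The element of Syvn1 is set below beside those of Hspa5 and of the pathway genes Creld2 and Derl3, read on the strand that matches, with the fixed bases in capitals. The stretch between the capitals is free in the search. Alg12, a mannosyltransferase gene of glycan assembly, shares the element of Creld2, since these neighbours are read away from each other.
Syvn1: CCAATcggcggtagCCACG
Hspa5: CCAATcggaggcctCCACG
Creld2: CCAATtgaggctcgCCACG
Derl3: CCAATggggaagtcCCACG

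Of the 37 genes with the element 22 were tested, and between genotypes under vehicle 8 of them fell and 0 rose (Hspa5, Creld2, Pdia6, Calr, Dnajc3, Spats2l, Syvn1 and Hsp90b1), 36.4% against the 9.16% of all genes, with a median log2 change of -0.169. Under clozapine in wild type 3 of the 22 fell (Hspa5, Pdia6 and Calr) and 0 rose, 13.6% against 0.816%. The 22 genes were chosen by sequence after the values of Syvn1 and Hspa5 were known, so the counts are a description with no test. Derl3, a derlin gene at a mean of 1.63 CPM, had the largest change among pathway genes with the element that were not called (-0.49 between genotypes under vehicle, adjusted p = 0.207).

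**Figure D4:**
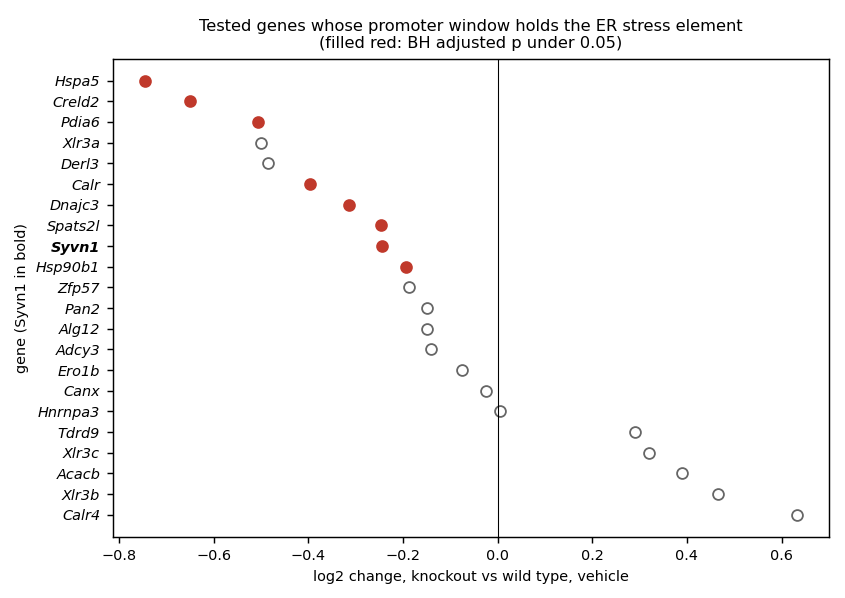
Log2 change in labelled knockout against wild type under vehicle (x axis) for the 22 tested genes whose promoter window holds the ER stress element, ordered by change. Filled red marks the 8 genes with a BH adjusted p under 0.05, all below 0; Syvn1, the member of the set, is in bold, and several genes without a call lie above 0.

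Other features of the libraries moved with the comparison in which members were called. Across genes, the change between genotypes under vehicle declined with exonic length, with a median log2 change of 0.073 among the 1722 genes of shortest exonic length and -0.075 among the 1720 of longest (Spearman's rho -0.209 over 17197 genes and -0.269 over the 38 members, as descriptions). After correction for length and GC content the 4 members were still called in edgeR, with adjusted p of 0.0207 for Srp9, 0.00282 for Spcs3, 0.0496 for Sel1l and 0.0133 for Syvn1. The log2 change of Sel1l shrank from -0.220 to -0.151, and that of Syvn1 from -0.244 to -0.221. The changes of Srp9 (0.175 to 0.212) and Spcs3 (-0.255 to -0.298) grew. Of the cell markers, the 4 endothelial genes summed to between 129 and 136 CPM in labelled knockout vehicle libraries and between 135 and 166 CPM in wild-type vehicle libraries, and Tek among them fell (log2 change -0.375, adjusted p = 0.0156 in edgeR). Of the 3 oligodendrocyte precursor genes, Pdgfra rose (0.36, adjusted p = 0.00286 in edgeR). Cspg4 (-0.107) and Gpr17 (-0.138) were below 0 and were not called. The part of these cells and of the choroid plexus markers of wild-type vehicle 3 in the 4 calls was not tested beyond the fits without that library.

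**Figure D5:**
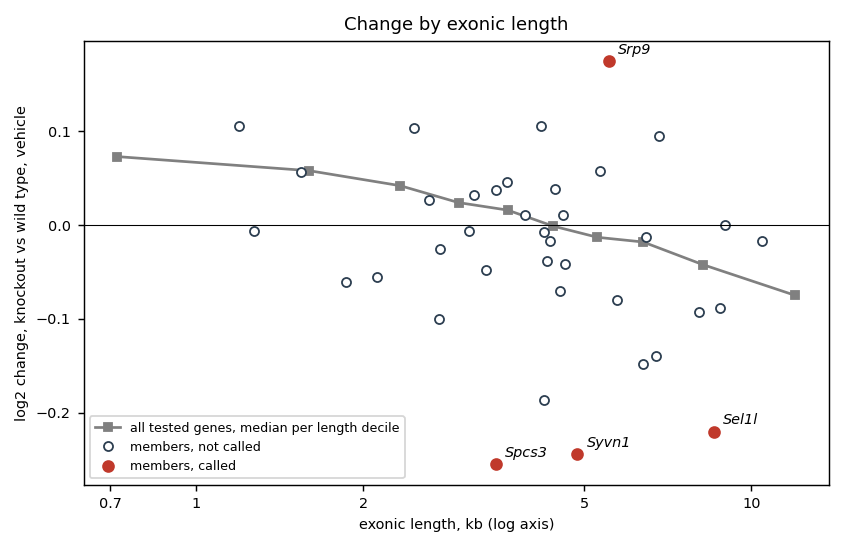
Log2 change in labelled knockout against wild type under vehicle (y axis) by exonic length in kb (log axis), with circles for the 38 genes (red where called) and grey squares for the median of all tested genes in 10 classes by length. The grey medians run from 0.073 to -0.075 with increasing length, and Srp9 lies above and Spcs3, Syvn1 and Sel1l below them.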

How the data were processed

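RNA was measured per gene in 12 libraries. The authors aligned reads to GRCm38 with STAR 2.5.1b and counted them with featureCounts (per the submitters' processing notes). They deposited estimated counts, 1 value per gene and library: 7.13% to 7.64% of the values of a library, and 56 of 456 for the members, are not whole numbers. How reads shared between genes were split and whether strand was used is not given in the sources used here, so 14 members that overlap other exons, and near copies, are uncertain. Values were rounded for the tests. Genes were named from GENCODE mouse release 21 (46574 of 47069).

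Genes were kept by filterByExpr (17286). One fit of 12 libraries with 4 group means gave 5 contrasts in edgeR 4.0.16 (R 4.3.3; TMM scaling, robust quasi-likelihood test, BH adjustment over all tested genes, threshold 0.05), and was tested on simulated data. CPM use TMM-scaled library sizes; SDs are over 3 libraries. Alternatives were RLE size factors, DESeq2 1.42.0, limma-voom (limma 3.58.1), a replicate block, no low-count filter, a floor of 1 on the mean CPM, unrounded counts, an offset for exonic length and GC content, the 2 groups alone, and leaving out each of 12 libraries. Near copies were found with BLAST 2.17.0 (95% identity over 200 bases or more). The members and lists were chosen with earlier results of these data known. Values in every library are given for each called member and, in a role with none, for the member of smallest p; of other pathway genes, up to 6 called per contrast. No pairing of libraries was used. Results for some genes under these rules are not reported here.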

Additional observations from a re-analysis of the deposited data

Results flagged for a closer look

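Hspa5 was picked out because the effect of clozapine differed between genotypes: the labelled knockout's response minus the response of wild type was 0.592 on the log2 scale (SE 0.075, adjusted p = 0.00195 in edgeR). Its means were 235 CPM with clozapine and 222 CPM with vehicle in the labelled knockout, and 261 CPM with clozapine and 371 CPM with vehicle in wild type (n = 3 each). None of the 38 members was called for this difference, against 0.654% of all genes. At an unadjusted p under 0.05 in edgeR there were 5 members, against 13.6% of all genes.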

How the results depend on the processing

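Between genotypes under vehicle the 4 called members (Srp9, Spcs3, Sel1l and Syvn1) became 0 with a replicate block, which the labels do not ask for, and 1 (Syvn1) when only the 2 groups compared were fitted. Leaving out 1 library gave 1 to 4 called members: 1 without wild-type vehicle 3 (Spcs3) or labelled knockout vehicle 5 (Syvn1), and 2 without labelled knockout vehicle 2 (Spcs3 and Sel1l) or 4 (Sel1l and Syvn1). No such fit kept all 4: where the count was 4, Stt3b was called and Srp9 was not (without wild-type clozapine 3 or 5). Under clozapine in wild type, 0 called members became 1 with DESeq2 (Sec61a1), and leaving out 1 library gave 0 to 1, the 1 being Stt3b without wild-type clozapine 3. In the other 3 comparisons the count was 0 in each alternative run. With the block, adjusted p was 0.168 for Srp9, 0.114 for Spcs3, 0.118 for Sel1l and 0.0670 for Syvn1, and Sil1 and Sdf2l1 under clozapine in wild type and Creld2, Alg10b, Sil1 and Dnajc1 between genotypes also lost their calls. No called member changed direction in any alternative, but the correction for length and GC turned the sign of 5 uncalled members between genotypes under vehicle (Tram1, Ssr1, Spcs1, Spcs2 and Edem1) and of 2 to 6 in each other comparison, all with changes of at most 0.057. Srp9 was called in 6 of 21 alternatives and Syvn1 in 18. Same-numbered libraries did not stand out as pairs: over 10 such pairs the deviations from group means correlated at -0.0803 to 0.123, and 1 pair was over 0.1. The 44 other pairs between groups ran from -0.208 to 0.15. With 3 libraries a group and 10 pairs, this check cannot show that libraries were not paired. With 3 libraries a group, the smallest called change among the members was 12.9%.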
